A study of Mus musculus with 8 samples.

Results

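Beta-catenin output in these pancreatic ductal adenocarcinoma (PDAC) cells was followed through 10 genes, picked by symbol, as parts of the pathway, from the deposited table of 34478 genes. They comprise the effector of canonical Wnt signaling itself (Ctnnb1), 3 of its DNA-binding partners (Tcf7, Tcf7l2 and Lef1), 5 negative feedback genes (Axin2, Nkd1, Rnf43, Znrf3 and Dkk1) and the target gene Sp5. All 10 were found in the table. RNA was sequenced from 4 primary murine PDAC lines, numbered #1, #3, #5 and #10, each with 1 library after DMSO and 1 after 48 h with trametinib, an inhibitor of the kinases MEK1 and MEK2, at the line's own IC50. Doses therefore differed between lines, and DMSO and trametinib were compared within each line. All 8 libraries share the same mouse model, with the alleles Ptf1awt/Cre and Trp53loxP/loxP among others, in which Cre from the Ptf1a locus of the pancreatic lineage deletes Trp53, so that the controls carry this lesion too. The lines had been grown out from tumor pieces, and the labels do not say whether a line is 1 clone, how many mice the lines came from, or that libraries came from repeat cultures.

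Without a Wnt signal, the destruction complex of Axin, Apc, Gsk3 and Csnk1a1 phosphorylates beta-catenin and has it degraded. A Wnt ligand bound to a Frizzled receptor and Lrp5 or Lrp6 stops this, so beta-catenin accumulates, enters the nucleus and switches on genes with the TCF/LEF factors. Several of those genes encode brakes on the pathway. In the pancreas the pathway takes part in organ growth and regeneration, and loss of Rnf43 makes ductal tumors dependent on Wnt ligands. RNA levels do not show how much beta-catenin protein is stable or nuclear.

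Library totals ran from 33385299 to 36385719 normalized counts with DMSO and from 30680091 to 33063309 with trametinib, lower with trametinib in every line. Judged from the value of 1 read in each library, depth was about 29300000 to 46100000 reads. Depth did not follow the totals: the DMSO library of line #5 had the highest total and the fewest reads. Drug action was visible in all lines: 8 of 8 listed MAPK target genes were lower in limma. Etv4, an ETS factor downstream of ERK, had a log2 fold change of -5.92 (limma, SE of 0.39, adjusted p = 0.00020), and the ERK phosphatase Dusp6 one of -2.51. The cultures carried ductal epithelial RNA, with Krt8 at 27587 to 132484 and Cdh1 at 19629.9 to 28487 normalized counts, although the epithelial marker Epcam was listed at 0 with DMSO in lines #1, #5 and #10. Of the 8 ductal epithelial markers tested, 5 were lower and 2 higher with trametinib in limma, where 25.6% and 27.3% of all genes were. Summed fibroblast markers went from 96.9 to 369 normalized counts with DMSO to 440 to 1259.8 with trametinib, and were higher in 4 of 4 lines, but of the 5 of 10 that passed the filter only Col1a1 was called higher and Lum was listed at 0 in every library. Summed endothelial markers went from 30.9 to 55.4 to between 62.7 and 831, of which only Tek was called higher, with Emcn near 0. Summed ductal epithelial markers were 222249 to 350408 normalized counts with DMSO and 114727 to 223801 with trametinib. The sums of the acinar markers were 52.8 to 279.8 with DMSO and 29.8 to 156 with trametinib. Both sums were higher with trametinib in 0 of 4 lines. The sums of the immune markers were 154 to 266 over all libraries, and higher with trametinib in 3 of 4 lines. In bulk RNA, a change in the share of a cell type and a change of RNA per cell cannot be told apart.

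With trametinib the 10 genes did not move as 1 group. Of the 6 that passed the filter on low counts (a mean of at least 10 normalized counts), Axin2 and Ctnnb1 rose, Tcf7 and Znrf3 fell, and Tcf7l2 and Rnf43 were not called. Lef1, Nkd1, Dkk1 and Sp5 lay below the filter and were not tested. The 2 higher calls compare with 27.3% of the 15888 genes tested that were called higher, and the 2 lower calls with 25.6% called lower. A call required an adjusted p below 0.05 in limma, fitted with a term for the cell line. Over the 6 genes the median log2 fold change was 0.05, against 0.07 for all genes tested. A count of 2 in each direction is near what that background gives for 6 genes, so the counts alone say nothing particular about these genes.

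**Figure D1:**
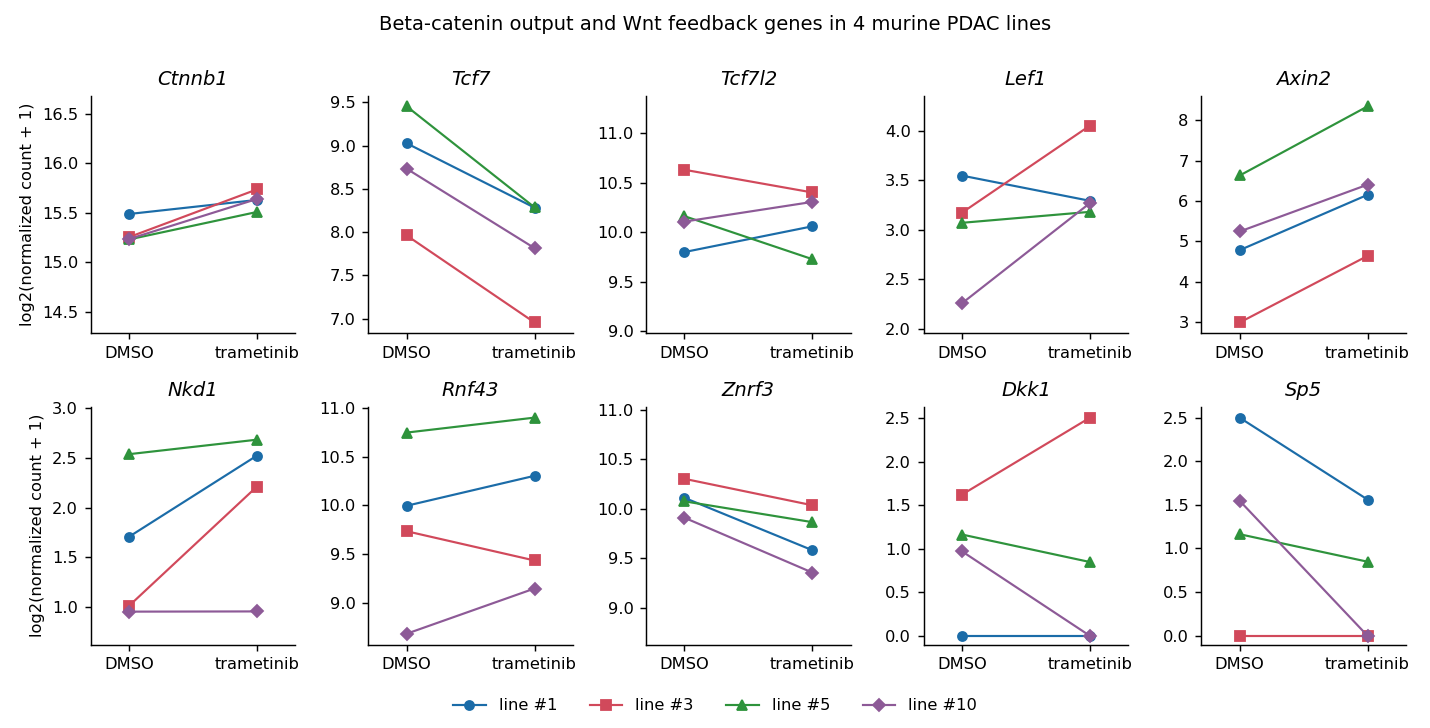
Normalized counts of the 10 genes, as log2(normalized count + 1), in the DMSO and trametinib library of each of the 4 PDAC lines, with 1 line drawn per cell line and a separate vertical scale in each panel. Axin2 rises and Tcf7 falls in all 4 lines, while Nkd1, Dkk1 and Sp5 lie near the level of a few reads.

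Ctnnb1 encodes beta-catenin, which also links cadherins to the actin cytoskeleton. It lies on chromosome 9 from 120929216 to 120960507 of GRCm38 (ENSMUSG00000006932). Under DMSO and trametinib, line #1 had 45919.6 and 50665 normalized counts, line #3 had 39052 and 54529, line #5 had 38429 and 46565, and line #10 had 38531 and 50998. Every trametinib library was above every DMSO library, a separation that 15.1% of the genes tested showed in the same direction. The rise was small, 1.10-fold to 1.40-fold within a line, with a log2 fold change of 0.33 (limma, SE of 0.11, adjusted p = 0.040). Per kilobase of exon, Ctnnb1 stood at 7797 ± 700.1 (SD, n = 4 lines) normalized counts with DMSO, above 98.8% of the 15297 tested genes with a known length. The call was close to the threshold. It was lost without line #1 (adjusted p = 0.062 in limma), line #5 (0.12) or line #10 (0.16), and with libraries centred on their median (0.12), while quantile normalization gave a larger log2 fold change of 0.61 (0.0086). Exons of Ctnnb1 overlap those of Ulk4 on the opposite strand, which stood at 17.2 to 123 normalized counts and was itself called higher (log2 fold change 1.27, adjusted p = 0.047 in limma). The part of overlapping reads in the rise of Ctnnb1 was not tested.

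Axin2 is the scaffold of the destruction complex that beta-catenin itself induces, and is widely used as a readout of the pathway. It lies on chromosome 11 from 108920349 to 108950783 (ENSMUSG00000000142). Under DMSO and trametinib, line #1 had 26.5 and 70.2 normalized counts, line #3 had 6.92 and 23.9, line #5 had 98.3 and 325, and line #10 had 36.9 and 83.8. It was thus higher with trametinib in 4 of 4 lines, by 2.27-fold to 3.45-fold. The log2 fold change was 1.47 (limma, SE of 0.23, adjusted p = 0.0023), the largest rise among the 6 genes tested. The lines kept their order in both treatments, #5, #10, #1 and #3 from high to low, and the highest line exceeded the lowest 14.2-fold with DMSO and 13.6-fold with trametinib. The ranges of the 2 treatments therefore overlapped, and the adjusted p was 0.26 in limma when the pairing by line was ignored. In line #3 the values rest on about 7 and 25 reads. Even with trametinib the level stayed low, 22.8 ± 24.6 (SD, n = 4 lines) normalized counts per kilobase of exon, and with DMSO it was above 13.7% of the tested genes. The antisense gene Gm11670, whose exons overlap Axin2, was listed at 0 in every library.

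Nkd1, an inhibitor that binds Dishevelled and is likewise induced by the pathway (chromosome 8, 88521354 to 88594884), was barely detected. It was listed at 2.26, 1.01, 4.81 and 0.930 normalized counts under DMSO (lines #1, #3, #5 and #10), and at 4.75, 3.63, 5.43 and 0.933 with trametinib. Between 1 and 7 reads stood behind each value, and 4 of the 8 did not exceed the floor of 3 reads, so no fold is given. Line #10 did not differ between treatments by as much as 1 read.

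Rnf43 and Znrf3 are transmembrane ubiquitin ligases that remove Frizzled receptors from the cell surface. Rnf43, on chromosome 11 from 87662722 to 87735539, stood at 1020.4, 851, 1718 and 410.1 normalized counts under DMSO (lines #1, #3, #5 and #10), and at 1263, 691, 1911 and 566 with trametinib. It was higher in lines #1, #5 and #10 and lower in line #3, and the log2 fold change was 0.16 (95% interval -0.18 to 0.49, adjusted p = 0.38 in limma). Without line #3 it was 0.31 and passed (adjusted p = 0.040 in limma). Znrf3, on the same chromosome from 5276324 to 5444847, had 1104 normalized counts under DMSO and 765 under trametinib in line #1, 1261 and 1048 in line #3, 1077 and 931 in line #5, and 960.3 and 654 in line #10. It was lower in 4 of 4 lines although the ranges of the treatments overlapped, with a log2 fold change of -0.39 (limma, SE of 0.11, adjusted p = 0.020). The fall of Znrf3 did not pass without line #1 (adjusted p = 0.086 in limma), without line #10 (0.094), or with libraries rescaled to equal totals (0.079), a scaling that moved the median of all genes from 0.07 to 0.20. The lines differed more in Rnf43 than in its relative: the highest DMSO library exceeded the lowest 4.19-fold for Rnf43 and 1.31-fold for Znrf3.

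Tcf7 encodes TCF1, a TCF/LEF factor of which short forms lack the domain that binds beta-catenin. It lies on chromosome 11 from 52252371 to 52283014 (ENSMUSG00000000782). Line #1 had 520.1 normalized counts under DMSO and 310.2 under trametinib, line #3 had 248 and 123, line #5 had 699.5 and 311, and line #10 had 424 and 224. Each line lost between 0.74 and 1.17 on the log2 scale, and trametinib left 0.445 to 0.597 of the DMSO level. The log2 fold change was -0.96 (limma, SE of 0.13, adjusted p = 0.0015), and it passed with each line left out in turn and with each of the 3 other scalings. Values per gene do not tell its short from its long forms.

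Tcf7l2 encodes TCF4, the main partner of beta-catenin in adult gut epithelium, and lies on chromosome 19 from 55741820 to 55933654. It stood at 891, 1586, 1146 and 1103 normalized counts under DMSO (lines #1, #3, #5 and #10), and at 1067, 1353, 848 and 1266 with trametinib. Lines #1 and #10 had more of it under trametinib while lines #3 and #5 had less, with a log2 fold change of -0.05 (95% interval -0.39 to 0.28, adjusted p = 0.78 in limma). Lef1, the factor that is itself often induced by the pathway (chromosome 3, 131110471 to 131224356), was low throughout, at 10.7, 8.03, 7.41 and 3.79 normalized counts with DMSO and 8.81, 15.6, 8.08 and 8.65 with trametinib in the same order of lines. Lines #3, #5 and #10 had more of it under trametinib and line #1 had less, on about 4 to 17 reads a library. Without the filter it was not called (adjusted p = 0.54 in limma).

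**Figure D2:**
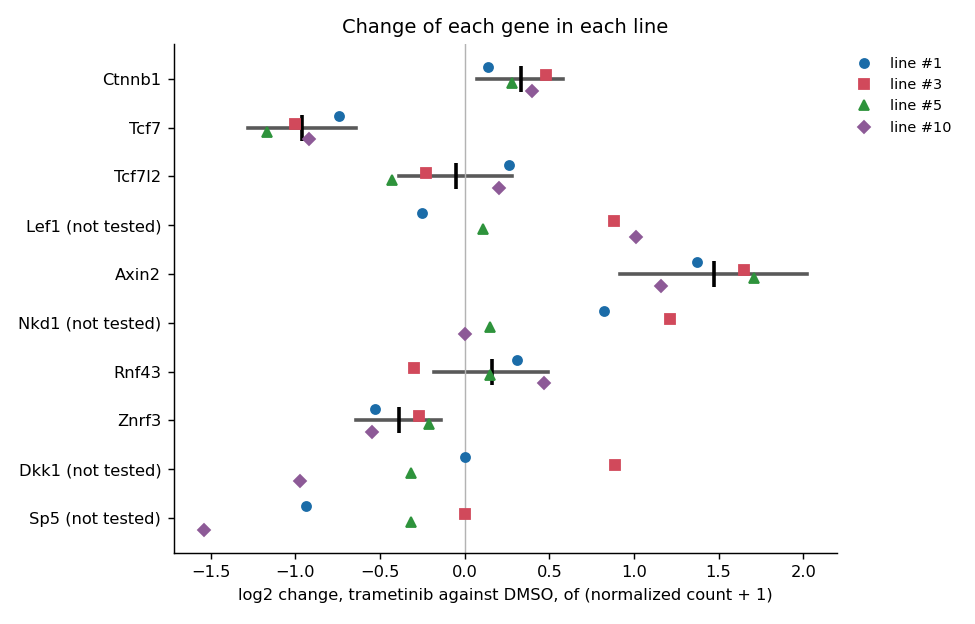
Change of each of the 10 genes with trametinib in each line (symbols), as the log2 ratio of (normalized count + 1). Black ticks and grey bars give the limma estimate and its 95% interval for the 6 genes tested. The 4 lines fall on 1 side of 0 for Ctnnb1, Tcf7, Axin2 and Znrf3, and on both sides for Tcf7l2, Rnf43, Lef1 and Dkk1.

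To set the TCF/LEF factors side by side, levels were divided by the exon length of each gene and expressed as a share of the summed level of Tcf7, Tcf7l2, Tcf7l1 and Lef1. Tcf7 made up 53.7% ± 14.2 (SD, n = 4 lines) of the sum under DMSO against 36.5% ± 11.9 (SD, n = 4 lines) under trametinib, a smaller share in 4 of 4 lines. The share of Tcf7l2 was higher with trametinib in 4 of 4 lines, at 52.6% ± 13.9 (SD, n = 4 lines) against 42.5% ± 15.2 (SD, n = 4 lines). Shares sum to a fixed total, so that a smaller Tcf7 share raises the others, and the level of Tcf7l2 itself was lower in lines #3 and #5. Tcf7l1, which encodes the mostly repressive factor TCF3, had 3.63% ± 2.32 (SD, n = 4 lines) and 10.4% ± 3.46 (SD, n = 4 lines). Its own log2 fold change was 1.23 (limma, SE of 0.21, adjusted p = 0.0032), with 26.6 to 90.1 normalized counts with DMSO and 66.2 to 171 with trametinib, and was 0.75 with quantile normalization. Lef1 made up less than the others in every library, at most 0.81%. Line #3 had the largest Tcf7l2 share in both treatments, at 63.9% and 70.2% of the sum. With DMSO, which of Tcf7 and Tcf7l2 had the larger mean share depended on the length used. A second length, that of the longest transcript, was added after the data were seen. By it Tcf7 had 36.2% with DMSO and 22.5% with trametinib, and Tcf7l2 had 60.4% and 69.1%. With trametinib the mean share of Tcf7l2 was the larger by both lengths, as was its share in line #3 in both treatments. By exon length Tcf7 still had the larger share in line #5 with trametinib, at 49.3% against 40.2%. In lines #1 and #10 Tcf7l2 had 42.7% and 57.3%, against 41.5% and 33.9% for Tcf7. The directions of change with trametinib in the 4 lines held with both lengths. No test was made on these shares.

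**Figure D3:**
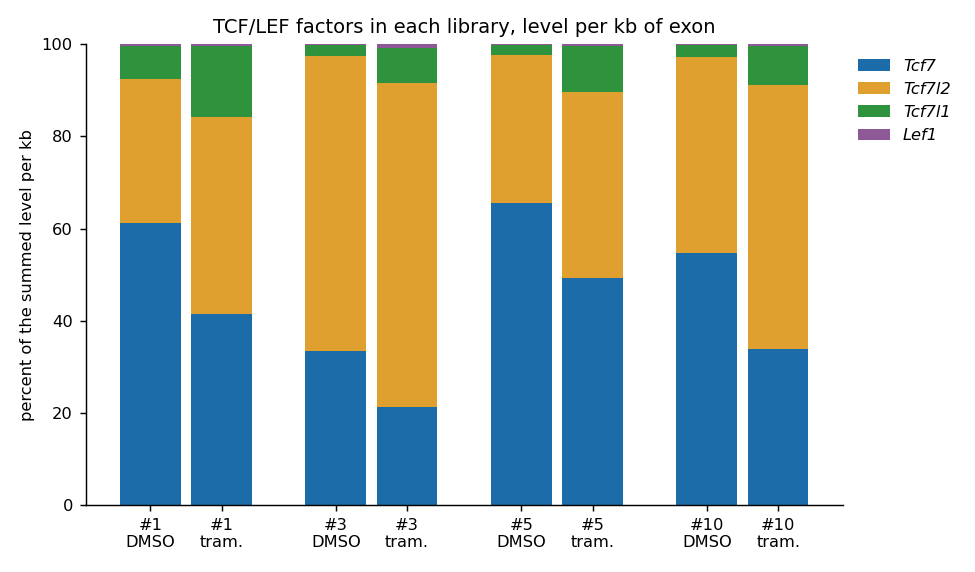
Shares of Tcf7, Tcf7l2, Tcf7l1 and Lef1 in their summed normalized counts per kilobase of exon, in percent, for the DMSO and the trametinib (tram.) library of each line. The Tcf7 share is smaller with trametinib in each of the 4 lines, and line #3 has the largest Tcf7l2 share.

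Per kilobase of exon, Ctnnb1 was far above the other members with DMSO, Axin2 was below the next 4, and Sp5, Lef1, Nkd1 and Dkk1 were all under 1 normalized count per kilobase. Between them lay Tcf7 at 180.1 ± 71.8, Rnf43 at 152 ± 82.8, Znrf3 at 139 ± 15.7 and Tcf7l2 at 135 ± 33.3 normalized counts per kilobase (SD, n = 4 lines). Neighbours in this order were closer than the larger of their SDs. With trametinib Rnf43 was at 169 ± 93.9, Tcf7l2 at 129 ± 25.6, Znrf3 at 108 ± 22.1 and Tcf7 at 92.2 ± 34.0 normalized counts per kilobase (SD, n = 4 lines), and the same held. The order depends on the length used: per kilobase of the longest transcript, Tcf7l2 had 239.8, 427, 309 and 297 under DMSO (lines #1, #3, #5 and #10), against 210.5, 100.2, 283 and 172 for Tcf7.

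Dkk1 and Sp5 were at the edge of detection. Dkk1, a secreted inhibitor that blocks Lrp5 and Lrp6 (chromosome 19, 30545863 to 30549665), was listed at 0, 2.08, 1.24 and 0.959 normalized counts under DMSO (lines #1, #3, #5 and #10), and at 0, 4.68, 0.8 and 0 with trametinib. Only the trametinib library of line #3, with about 5 reads, was above the floor of 3 reads. Sp5, a zinc finger repressor that is a direct target of beta-catenin (chromosome 2, 70474923 to 70477729), was listed at 4.65, 0, 1.24 and 1.92 with DMSO and at 1.95, 0, 0.801 and 0 with trametinib. Its DMSO library of line #1, with about 6 reads, was the single one above the floor. Neither gene allows a fold, and at this depth no difference was detectable.

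The promoter windows of RefSeq (GRCm38.p6), from 250 bases before a start site to 50 after it, were searched for the core of the TCF/LEF motif, spelled as CTTTGAA with its variants CTTTGAT plus CTTTGTA plus CTTTGTT, on both strands and with overlapping matches counted. Of the 10 genes 9 had a window, and 4 of these (Lef1, Tcf7l2, Dkk1 and Sp5) held a match in at least 1 window. Of all 27025 genes with a window 18.9% did. Genes differ in their number of windows: by window, 4 of the 16 of these genes held a match, against 16.9% of all 32851 windows. Lef1 had 4 windows and Tcf7l2 had 2, each with a match in only 1 of them. The window of Axin2, which rose in all 4 lines, is printed beside those of the near-silent targets Sp5 and Dkk1, because the latter hold 2 matches each. Capitals mark the matches and each sequence runs 5′ to 3′ on the strand of its gene. Axin2 spans chr11:108920099-108920398 on the plus strand, Sp5 chr2:70474673-70474972 on the plus strand and Dkk1 chr19:30549447-30549746 on the minus strand.
Axin2: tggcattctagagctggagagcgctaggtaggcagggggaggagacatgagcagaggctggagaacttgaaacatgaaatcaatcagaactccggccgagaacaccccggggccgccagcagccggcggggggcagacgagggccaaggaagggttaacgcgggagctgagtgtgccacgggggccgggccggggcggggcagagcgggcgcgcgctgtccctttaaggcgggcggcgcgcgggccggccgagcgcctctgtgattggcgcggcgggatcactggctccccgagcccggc
Sp5: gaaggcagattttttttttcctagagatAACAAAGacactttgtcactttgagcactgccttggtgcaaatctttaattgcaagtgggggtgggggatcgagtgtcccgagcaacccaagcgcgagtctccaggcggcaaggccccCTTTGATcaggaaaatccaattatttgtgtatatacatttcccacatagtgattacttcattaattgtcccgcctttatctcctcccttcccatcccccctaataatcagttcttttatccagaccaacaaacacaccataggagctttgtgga
Dkk1: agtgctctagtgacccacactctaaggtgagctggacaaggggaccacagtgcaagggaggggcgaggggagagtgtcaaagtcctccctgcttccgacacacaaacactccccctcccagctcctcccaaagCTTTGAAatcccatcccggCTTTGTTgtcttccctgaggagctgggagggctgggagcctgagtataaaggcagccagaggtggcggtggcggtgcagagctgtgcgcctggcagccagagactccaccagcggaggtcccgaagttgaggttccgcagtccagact

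The matches began 222 and 104 bases before the start site in Sp5 and 117 and 98 bases before it in Dkk1, while the Axin2 window held none. A match is a short run of letters and not a measured binding site, and its absence concerns only this window. The Axin2 window had a G and C content of 70.0%, Sp5 one of 45.0% and Dkk1 one of 60.7%, against a median of 52.7% over all 32851 windows.

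Among the genes tested, the 5 whose log2 levels followed Axin2 most closely over the 8 libraries were Prph (Pearson's r = 0.981), Jrk (0.980), Myo10 (0.970), Atn1 (0.961) and Egfr (0.959). These values describe 8 libraries of 4 lines and mix differences between lines with the response to trametinib. The intermediate filament gene Prph went from 36.2, 25.5, 84.3 and 45.2 normalized counts under DMSO (lines #1, #3, #5 and #10) to 79.4, 41.0, 140.3 and 68.5 with trametinib. Egfr, the EGF receptor, went from 758, 597, 2076 and 1121 to 1559, 1052, 4672 and 2682 in the same order. As for Axin2, line #5 was highest and line #3 lowest in both treatments for both genes. Both were picked for following Axin2 in these libraries, so the shared order is no separate observation. The correlations of other members with Axin2 over the same libraries were lower, from -0.67 for Tcf7l2 to 0.52 for Rnf43.

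**Figure D4:**
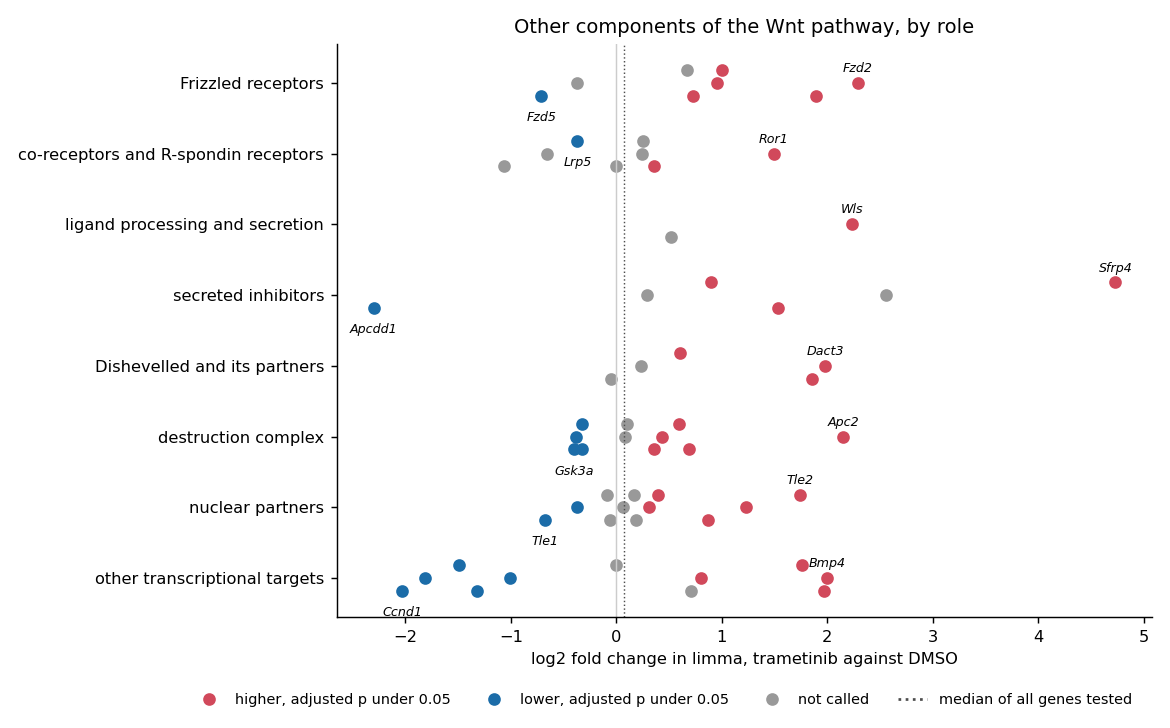
Log2 fold change in limma of 63 other components of the Wnt pathway, 1 point per gene, in rows by role and colored by whether the gene was called higher, lower or neither. The dotted line marks the median of all genes tested, 0.07. Sfrp4 lies farthest to the right at 4.73 and Apcdd1 farthest to the left at -2.30.

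The rest of the pathway was read from a list of 86 components ordered by role, of which 84 were in the table and 63 passed the filter. In limma, 28 were higher and 14 lower with trametinib, or 44.4% and 22.2% of those tested, against 27.3% and 25.6% of all genes. Their median log2 fold change was 0.31, and no test was made of the list as a whole. The higher count came down to 13 and the lower to 7 without the block. With libraries rescaled to equal totals, 30 of the list were higher and 8 lower, where 5315 of all genes were higher and 3284 lower.

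Of 8 Frizzled genes tested, which encode the Wnt receptors, 5 were higher and 1 lower, or 62.5% and 12.5%, against 27.3% and 25.6% of all genes, with no test of the group. Fzd2 went from 508, 297, 477 and 348 normalized counts under DMSO (lines #1, #3, #5 and #10) to 1922, 2781, 1932 and 1386 with trametinib, a log2 fold change of 2.29 (limma, SE of 0.23, adjusted p = 0.00057). Fzd5, another Frizzled receptor, was lower in 4 of 4 lines, at -0.71 (limma, SE of 0.22, adjusted p = 0.032), but by only -0.10 in line #1 and -0.25 in line #5. The fall of Fzd5 did not pass without line #3 (adjusted p = 0.080 in limma) or line #10 (0.12), nor with equal totals (0.060) or quantile normalization (0.061). Of the 8 co-receptors and R-spondin receptors, 2 were higher and 1 lower, or 25.0% and 12.5%, and 1 of the 2, the R-spondin receptor gene Lgr4, kept its call in 7 of 14 alternatives. Ror1, a receptor for Wnt ligands that act without beta-catenin, had a log2 fold change of 1.49 (limma, SE of 0.19, adjusted p = 0.0012). The co-receptor Lrp5 fell by 0.37 on the same scale (adjusted p = 0.020 in limma), which did not pass without line #1 (0.083), line #5 (0.092) or line #10 (0.059), nor with equal totals (0.078) or quantile normalization (0.081). Lgr5, a stem cell receptor for R-spondins and itself a beta-catenin target, was lower in lines #1, #3 and #5 and higher in line #10, from 64.7, 47.4, 45.7 and 11.7 to 31.2, 11.7, 12.6 and 16.4 in lines #1, #3, #5 and #10. Its log2 fold change was -1.07 (limma, SE of 0.45, adjusted p = 0.082) and passed without line #10 (-1.58, adjusted p = 0.018 in limma) and with quantile normalization (-1.52, 0.036). None of the 4 R-spondin genes passed the filter.

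Genes for the secretion and inhibition of ligands changed in both directions. Wls, the carrier that brings Wnt proteins to the cell surface, went from 5857, 3198, 3633 and 2331 normalized counts to 18539.9, 20799, 17508 and 11341 in lines #1, #3, #5 and #10, a log2 fold change of 2.23 (limma, SE of 0.16, adjusted p = 0.00025). Of the 14 secreted or surface inhibitors listed, 6 passed the filter. Of these, 3 were higher and 1 was lower, or 50% and 16.7%, against 27.3% and 25.6% of all genes. Dkk3, 1 of the 3 called higher, reached the filter only through trametinib, with means of 5.8 under DMSO and 16.6 under trametinib. So did Sfrp2, which was not called, at 0.571 and 24.2. Sfrp4, a secreted Frizzled-related protein that binds Wnt ligands, went from 16.9, 21.8, 26.0 and 29.1 to 513, 1375, 588 and 389 in the same order of lines. Its log2 fold change was 4.73 (limma, SE of 0.35, adjusted p = 0.00027), with 13.4-fold to 63.0-fold differences within lines. Sfrp4 is also made by fibroblasts, and the summed fibroblast markers given above were higher in the same 4 lines. Their part in the rise of Sfrp4 was not tested. Apcdd1, a membrane-bound inhibitor induced by beta-catenin in other tissues, went the other way, from 398, 745, 561 and 1182 to 79.2, 494, 88.8 and 93.2, a log2 fold change of -2.30 (limma, SE of 0.44, adjusted p = 0.0051). Notum, an enzyme that inactivates Wnt ligands and a known target of the pathway, stayed below the filter, at 0 to 4.64 normalized counts with DMSO and 0 to 15.7 with trametinib.

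In the cytoplasm, changes ran in both directions. Of 5 tested genes of Dishevelled and its partners, 3 were higher and 0 lower (also 0 at an unadjusted p under 0.05 in limma), where 27.3% and 25.6% of all genes were, with the inhibitor Dact3 at 1.98 (limma, SE of 0.38, adjusted p = 0.0051). Of 11 genes of the destruction complex, 5 were higher and 4 lower, or 45.5% and 36.4%, against 27.3% and 25.6% of all genes. Apc2, a relative of Apc, had a log2 fold change of 2.15 (limma, SE of 0.27, adjusted p = 0.0011), from 50, 27.5, 61.2 and 444 normalized counts to 193, 240.3, 265 and 1239 in lines #1, #3, #5 and #10. The kinase gene Gsk3a fell by 0.40 (limma, SE of 0.097, adjusted p = 0.013), while its relative Gsk3b rose by 0.36 (adjusted p = 0.015 in limma), a pair chosen after the values were seen. The fall of Gsk3a did not pass with libraries rescaled to equal totals (adjusted p = 0.052 in limma), and the rise of Gsk3b was lost when libraries were centred on their median (0.051) or without line #1 (0.061).

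Among 12 tested nuclear partners, 5 were higher and 2 lower, or 41.7% and 16.7%, against 27.3% and 25.6% of all genes. Of the Groucho corepressors, which silence TCF/LEF targets, Tle2 had a log2 fold change of 1.74 (limma, SE of 0.12, adjusted p = 0.00022), and Tle1 one of -0.68 (limma, SE of 0.12, adjusted p = 0.0035). Tle3 and Tle4 were not called, at 0.06 and 0.17, nor was their relative Aes, at -0.06. Of 11 tested genes listed as other targets of beta-catenin, 4 were higher and 5 lower, or 36.4% and 45.5%, against 27.3% and 25.6% of all genes, and no test was made of the group. Ccnd1, which encodes cyclin D1 and also responds to ERK signaling, went from 38080.3, 19569, 47532 and 29415 normalized counts to 12507, 4099, 14280.1 and 5157 in lines #1, #3, #5 and #10, a log2 fold change of -2.03 (limma, SE of 0.16, adjusted p = 0.00033). Myc, another gene shared by both pathways, fell by 1.01 (adjusted p = 0.00031 in limma), and Cd44, Sox9 and Cdx2 were lower as well, by 1.32, 1.49 and 1.81 on the log2 scale. Other than Ccnd1 and Bmp4, the targets named here were picked with their values in view, and Sox9 also stands in the list of ductal markers. The genes called higher were Bmp4, Sp8, Jun and Ephb3. The growth factor gene Bmp4 had a log2 fold change of 2.0 (limma, SE of 0.49, adjusted p = 0.013), with 4.11 in line #3 and 1.06 to 1.65 in the others, and was at 1.3 without line #3. Sp8, a zinc finger factor related to Sp5, Jun, a subunit of AP-1, and the ephrin receptor gene Ephb3 had log2 fold changes of 1.97, 1.76 and 0.80 (adjusted p = 0.019, 0.0038 and 0.0086 in limma). The rise of Sp8 did not pass without line #5 (0.068), and its log2 fold change was 1.36 without line #3.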

How the data were processed

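Libraries were made with a stranded mRNA kit. The values that the authors deposited are normalized counts for each gene, that is a signal already scaled between libraries. The submitters' processing notes name CASAVA 2.17, Salmon 0.12, DESeq2 1.18 and mm10, without roles. Whether strand was used in counting, and the annotation release, are not given in the sources used here.

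Values were transformed as log2(normalized count + 1) and analysed in R 4.3.3 using limma 3.58.1 (lmFit, eBayes with a mean-variance trend, cell line as a block) over 15888 genes whose mean reached 10, with Benjamini-Hochberg adjustment and a threshold of 0.05. Both libraries of a line come from the same cell line, and deviated together from the treatment means (correlation across genes 0.63 to 0.72). With no repeat cultures stated, p-values set the change with trametinib against its spread over these 4 lines, moderated by the trend over all genes. The fit was tested on a single set of simulated data, with 100 genes changed by 1 on the log2 scale and 100 others by 2. It recovered 67 of the former and 87 of the latter, and called 6 unchanged genes in all. Far fewer genes were changed there than were called in the data, so these rates need not carry over. A floor of 3 reads, 2.32 to 3.72 normalized counts, covers counting error only. Exon lengths and positions are those of GENCODE M21 (GRCm38), and promoter windows those of RefSeq. Python 3.11.15, numpy 2.4.6, pandas 2.3.3 and matplotlib 3.10.9 were used.

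The 10 genes and all lists were chosen with earlier results of these data known. Named in the text are these 10 genes, Dusp6 and Etv4, per role of the pathway list the gene with the largest rise and the largest fall among genes called and moved 1 way in all 4 lines, and the 5 genes most correlated with Axin2. Marker genes illustrate their lists, and Ulk4 and Gm11670 are named as overlapping genes. Tcf7l1, Lgr4, Lgr5, Notum, Dkk3, Sfrp2, Gsk3b, Tle3, Tle4, Aes, Myc, Cd44, Sox9, Cdx2, Sp8, Jun and Ephb3 were added after their values were seen. A further allele of the mouse model is not reported here. Alternatives were other pseudocounts (0.1 and 5), scalings, filters and eBayes settings, no block, and leaving out each line.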

Additional observations from a re-analysis of the deposited data

Results flagged for a closer look

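A value far from the other 3 of its group was looked for in 72 groups of 4 (levels with DMSO, levels with trametinib and log2 changes of the 10 genes and of the pathway genes named by rule), and 9 were found, where chance, at 1 in 20, gives about 3.6. No explanation was tested.

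Ctnnb1 stood at 45919.6 normalized counts in the DMSO library of line #1, against 38429 to 39052 in the other DMSO libraries. Lef1 stood at 15.6 with trametinib in line #3 (8.08 to 8.81 in the others), and Dkk1 at 4.68 in the same library (0 to 0.80), both on few reads.

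Line #3 also gave the log2 change of Fzd2 of 3.22 (1.92 to 2.02 in the others), the DMSO level of Lrp5 of 6247 (7006 to 7144), and the trametinib levels of Apcdd1 of 494 (79.2 to 93.2) and of Tle2 of 1975 (810 to 911). Apc2 was highest in line #10 in both treatments, at 444 with DMSO (27.5 to 61.2) and 1239 with trametinib (193 to 265). Line #3 thus held 6 of the 9 values.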

How the results depend on the processing

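Of the 4 calls among the 10 genes, those of Axin2 and Tcf7 held under 13 of 14 alternatives each, with log2 fold changes of 1.0 to 1.6 and -1.20 to -0.83, and were lost only without the block (adjusted p = 0.26 and 0.098 in limma). The numbers of genes called higher and lower were 2 and 2. Without the block for the cell line, 0 and 0 of the 10 genes passed in limma (2 of 6 tested had an unadjusted p under 0.05), Ctnnb1 and Znrf3 had an adjusted p of 0.12 and 0.14, the counts for the pathway list were 13 and 7 and those over all genes 2205 and 2347. Differences between lines, such as the 14.2-fold range of Axin2 with DMSO, count as error in the fit without the block. The number higher among the 10 genes was 1 with libraries centred on the median, without a filter or with eBayes without trend, where Ctnnb1 did not pass (adjusted p = 0.12, 0.055 and 0.056 in limma). The number lower was 1 with libraries rescaled to equal totals, where the pathway list had 8 lower. This scaling raised the trametinib libraries relative to the DMSO libraries, whose totals were higher. Why the totals differed was not tested. With a line left out, the number higher lay between 1 and 3 and the number lower between 1 and 2. The lists over all genes and the pathway stayed within 1.5 times their counts with a line left out, at 3383 to 4195 higher and 3302 to 4007 lower, and 24 to 28 higher and 10 to 14 lower. No alternative reversed a call among the genes fitted. Depth limits Nkd1, Dkk1 and Sp5, which had at most 7 reads in a library.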
